A study of Mus musculus with 19 samples.

Results

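The sites described here are the cytidines of nuclear-encoded ribosomal RNA (rRNA) genes in a HAC-seq table of mouse neural progenitor cells, 353 of the 118890 C sites listed. A site was taken where the first gene entry of its line had the biotype rRNA and the chromosome was not the mitochondrial one. The choice used gene annotation only and no measured value. The 353 sites lie in 8 genes. CT010467.1, an 18S rRNA sequence on chromosome 17 (plus strand), holds 342 of them, n-R5-8s1, a 5.8S gene, holds 4, 5 genes of the n-R5s family (5S) hold 1 each, and Gm24601 on chromosome 6 holds 2. Another 33 sites carry the rRNA biotype only in a later entry and were not counted, and sites of 28S rRNA were not analysed here.

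Cells were cultured from the cerebral cortex at embryonic day 17.5, on Matrigel with bFGF and EGF at 20 ng/mL each. Their genotype was wild type (WT) or a conditional Mettl8 knockout (Mettl8-cKO, cKO below). The labels name neither the Cre driver nor the allele. Nor do they say whether replicates came from different animals or cultures, and each p-value therefore refers to a spread between libraries that may be technical. HAC-seq was done on 8000 ng of total RNA in 4 WT and 3 cKO libraries, and RNA-seq (SMART-seq2) on 300 ng in 6 WT and 6 cKO libraries. In HAC-seq, hydrazine reacts with 3-methylcytidine (m3C) and aniline then breaks the strand, and a modified cytidine is followed by the start of a read. The cleavage ratio is the number of read starts listed for a site out of all reads over it, called its coverage. The read starts are described as lying directly downstream of the cytidine. Below, such reads are said to start at the site. All 7 libraries are labelled HAC-seq, and no library without the chemistry was analysed here, so a ratio does not separate chemical cleavage from other read ends.

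Ribosomes are built on a small set of rRNAs. RNA polymerase I makes a long precursor from repeated rDNA units, from which 18S, 5.8S and 28S rRNA are cut, and RNA polymerase III makes 5S rRNA from separate genes. Mature rRNA is modified at many sites, mostly by 2′-O-methylation and pseudouridylation guided by small nucleolar RNAs. Mettl8 encodes an m3C methyltransferase that acts in mitochondria on tRNA, and m3C is best known from the anticodon loop of tRNAs.

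The table resolves 18S rRNA through a single gene model. CT010467.1 (ENSMUSG00000106106, sites from 39846365 to 39848197 in GRCm38.p6) lies inside the RefSeq gene Rn18s-rs5, an 18S-related pseudogene of 1849 nucleotides at 39846354 to 39848202. Positions are given below as nucleotides of this copy, counted from 1 at 39846354. Reads of 18S rRNA from all rDNA units and transcripts of the copy itself cannot be told apart where they align here, and the labels and headers do not state how reads with several alignments were treated. Read starts and coverage refer to the same nucleotide: at nucleotide 245 of WT replicate 1, coverage was 72118 reads above that at nucleotide 244, and 72194 read starts were listed. Whether that nucleotide is the cytidine itself or the one directly downstream was not tested.

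The HAC-seq libraries had a summed coverage over distinct sites of 139883872 to 240176096 reads. Among all listed sites, 12402 distinct ones had coverage of at least 50 reads in every library and a mean ratio of at least 5%, and 1 of them differed between genotypes at an adjusted p under 0.05. That site lies in mt-Tt, the mitochondrial tRNA-Thr gene, and was lower in cKO (adjusted p = 1.13e-11, quasi-binomial test with limma's variance squeezing). One library stood apart from the others on 18S rRNA, cKO replicate 3, and most differences at named sites are therefore given with and without it. In the RNA-seq libraries (11830839 to 18863781 counts), summed progenitor markers were at 13376 to 17019 CPM (read counts scaled to library size) in WT and 12074 to 16330 CPM in cKO, with 0 of 10 markers absent. The neuronal list (5 of 6 markers in the table) summed to 87.3 to 214 CPM in WT and 90.6 to 156 CPM in cKO, and the list of 5 genes of the oligodendrocyte lineage to 313 to 962 CPM and 251 to 958 CPM. Summed markers of microglia, endothelium and fibroblasts stayed at or below 7.80 CPM, 3.25 CPM and 2.54 CPM in every library, and 1 microglia marker was at 0 throughout.

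Cleavage ratios along 18S rRNA were low at most cytidines and high at a few. The median over the 342 sites, each averaged over the 7 libraries, was 2.45%, and sites ranged from 0.0107% to 71.9%. A mean ratio above 10% was found at 34 sites, above 20% at 14 and above 50% at 2, while 89 sites were below 1%. Mean coverage had a median of 3879 reads over these sites and ran from 75.1 to 167765. Of the 342 sites, 175 lie in 72 runs of adjacent listed cytidines, and the last cytidine of a run had the higher ratio of its ends in 40 of the 72 runs. Neighbouring sites share reads and are not independent.

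**Figure D1:**
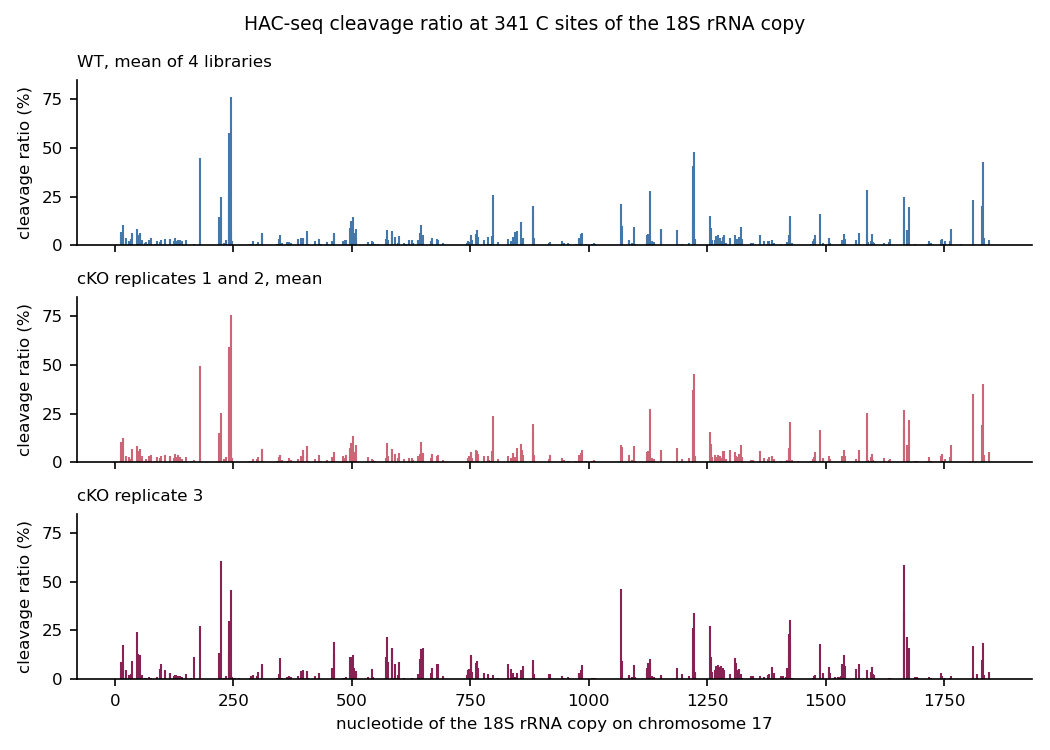
Cleavage ratio (read starts listed for a site, in percent of the reads over it) against the nucleotide of the 18S copy, for the mean of 4 WT libraries, the mean of cKO replicates 1 and 2, and cKO replicate 3. The WT and the first cKO profile share their high bars, led by nucleotide 245, and cKO replicate 3 has lower bars there and higher ones at nucleotides 223 and 1665.

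The highest ratio was at nucleotide 245 (position 39846598). It stood at 74.5%, 75.2%, 75.7% and 80.5% in WT replicates 1 to 4 and at 75.2%, 76.4% and 45.8% in cKO replicates 1 to 3, on 96944 to 234924 reads. The 6 libraries other than cKO replicate 3 lie within a narrow band, and that library lies far below it (exact Clopper-Pearson 95% interval 45.6% to 46.1%). Such intervals cover counting error only, since these reads carry no stated molecular identifiers. The site alone gave 49.1% to 63.8% of all 18S read starts in those 6 libraries and 24.9% in cKO replicate 3. Nucleotide 241 (39846594) stood next in rank, just upstream: 50.3%, 56.4%, 63.2% and 60.5% in WT, and 62.1%, 56.6% and 30.1% in cKO. Only the value of cKO replicate 3 lies outside the WT range at nucleotide 241, and the difference was −7.99 points with it and 1.78 points without it.

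Farther upstream, nucleotide 179 (39846532), had ratios of 33.9%, 44.8%, 52.9% and 47.1% in WT and 49.4%, 49.4% and 27.2% in cKO. Here the WT libraries themselves ran from 33.9% to 52.9%, and the difference changed sign with cKO replicate 3 (−2.66 points with it, 4.73 without it). Downstream of nucleotide 245, nucleotide 257 (39846610) had the highest coverage of any member, 104248 to 252367 reads. Few of these were read starts: 0.0238% to 0.0422% in WT, 0.0345% and 0.0522% in cKO replicates 1 and 2, and 0.222% in cKO replicate 3. In WT replicate 1, 72194 reads started at nucleotide 245, beside a coverage of 104248 reads at nucleotide 257. Reads that start at 245 and reach 257 add to its coverage but cannot start there, which by itself lowers its ratio. The low ratio at 257 is therefore not read as a property of that cytidine.

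Toward the 3′ end, adjacent nucleotides 1221 and 1222 (39847574 and 39847575) had similar ratios. Nucleotide 1221 stood at 41.4%, 41.4%, 40.8% and 40.4% in WT and at 34.1%, 40.6% and 26.1% in cKO. Nucleotide 1222 stood at 47.5%, 47.4%, 49.5% and 47.3% in WT and at 44.0%, 46.5% and 34.0% in cKO. The WT libraries lay close together at both (SD 0.496 and 1.09 points), and at nucleotide 1222 every cKO value lies below every WT value. Nucleotide 1832 (39848185), near the 3′ end of the copy, was at 43.0%, 41.4%, 39.2% and 47.5% in WT and 40.8%, 39.2% and 18.7% in cKO, where only cKO replicate 3 lies well below WT (difference −9.90 points, −2.79 without it).

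No nuclear rRNA site passed the test of cKO against WT. Of the 353 sites, 346 had the coverage and 85 of these also the mean ratio, 81 in 18S, 3 in 5.8S and 1 in Gm24601. The sites just inside the ratio limit were nucleotides 12 (5.21%) and 599 (5.27%), and those just outside were nucleotides 1283 (4.97%) and 1477 (4.89%). The quasi-binomial test called 0 of the 85 at an adjusted p under 0.05, against 0.00806% of all 12402 sites, and the lowest adjusted p among the 85 was 0.526. The mean ratio over the 85 sites was 13.1%, 13.8%, 14.4% and 14.3% in the WT libraries and 13.9%, 13.5% and 14.2% in the cKO libraries. The WT mean was thus 13.9% ± 0.582 (SD, n = 4) and the cKO mean 13.9% ± 0.327 (SD, n = 3). They differed by 0.000548 points with all libraries and −0.150 points without cKO replicate 3. The difference of the medians over sites was 0.546 points. Summed read starts over summed coverage, which weights sites by their reads, differed by −7.41 points with all libraries and 1.16 points without cKO replicate 3. The genotypes overlapped on the unweighted mean, and 43 sites were higher and 42 lower in cKO (42 and 43 without cKO replicate 3).

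At an unadjusted p under 0.05 the count depended on cKO replicate 3. With all libraries 21 of the 85 sites were lower and 30 higher, against 2.08% and 6.56% of all tested sites. Without that library 4 were lower and 2 higher, against 0.935% and 5.47% of all tested sites, and together they made up 7.06% of the 85 against 6.41% of all. Limma on arcsine-transformed ratios, which gives each library the same weight, called 0 and had 3 lower and 2 higher at that level with all libraries, against 1.95% and 5.81% of all tested sites. The quasi-binomial model weights a library by its coverage, and cKO replicate 3 had the most reads at 84 of the 85 sites. The median dispersion of the 81 tested 18S sites, the variance between libraries over that of counting, was 9.29 with this library and 2.60 without it. Tested sites outside nuclear rRNA with a mean coverage of at least 1000 reads had a median dispersion of 5.97 with all libraries. Their value without cKO replicate 3 was not computed, so the fall from 9.29 to 2.60 has no counterpart for those sites.

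Leaving this library aside, the genotypes were close at most 18S sites. The absolute difference between the mean of cKO replicates 1 and 2 and the WT mean had a median of 1.19 points over the 81 tested 18S sites and exceeded 5 points at 4 of them. Nucleotide 1069 had ratios of 21.2%, 18.3%, 24.3% and 21.0% in WT and 7.63%, 9.64% and 46.1% in cKO, on as few as 62 reads. The first 2 cKO libraries are below WT there and the last is above it. At nucleotide 1812, 284 of 1248, 241 of 902, 193 of 762 and 83 of 461 reads started in WT, at most 26.7%, and the ratios were 41.8%, 27.9% and 17.1% in cKO, so the cKO libraries lie on both sides of WT. The remaining 2 sites, nucleotides 1424 and 1425, had WT ratios of 7.48% to 24.4% and 5.21% to 18.6%, ranges wide enough to hold cKO replicates 1 and 2. These 4 sites were named after their values were seen.

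**Figure D2:**
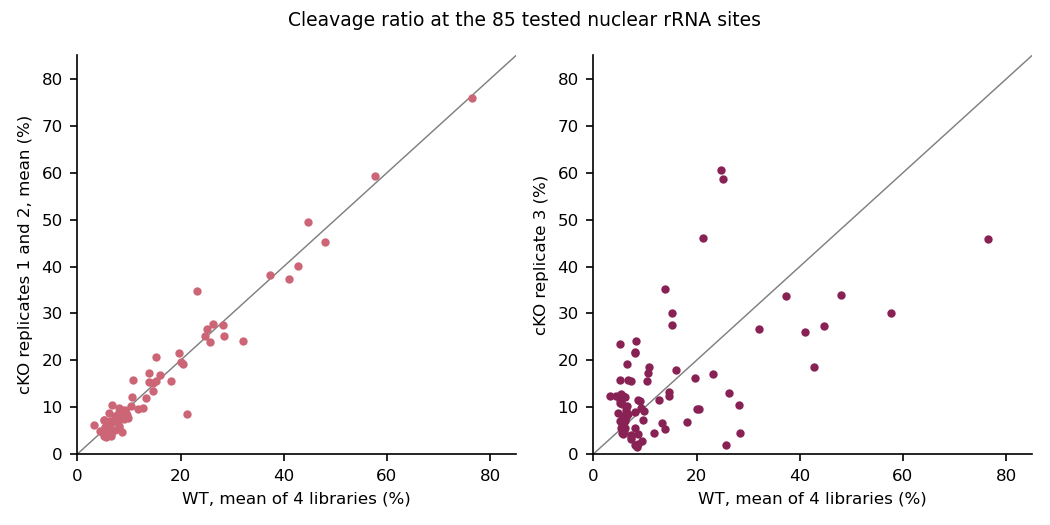
Cleavage ratio of the 85 tested sites, with the mean of 4 WT libraries on the x axis and either the mean of cKO replicates 1 and 2 or cKO replicate 3 on the y axis, each point 1 site and the grey line equality. Points follow the line in the left panel and scatter on both sides of it in the right one, where sites at or above 30% in WT all lie below it.

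Nucleotide 1152 (39847505) had the lowest p of the 85 sites in the lower direction. The ratio there was 8.33%, 8.04%, 7.06% and 10.8% in WT and 5.20%, 4.18% and 2.14% in cKO. All 3 cKO values lie below all 4 WT values. The means were 8.57% ± 1.61 (SD, n = 4) and 3.84% ± 1.56 (SD, n = 3), and they differed by −4.73 points, or −3.88 points without cKO replicate 3. Exact permutation over the 35 assignments of 7 libraries gave p = 0.0286, the smallest that 4 against 3 allows, and the quasi-binomial test with limma's squeezing gave an adjusted p of 0.526. The authors' deposited table gives this site a p of 0.0135, from a test that is not named. Coverage here was 47838 reads in cKO replicate 3 against 729 to 1800 in each other library, and the quasi-binomial model weights libraries by coverage. Without cKO replicate 1 the site was the 1 member called (0.0161% of all tested sites), with an adjusted p of 0.0377. The unweighted means then differed by −5.41 points, and the fit, on summed reads, gave −0.0598 as a fraction. Over the fits that left out 1 library the adjusted p of this site ran from 0.0377 to 0.766. With dispersions squeezed to a trend on coverage, an alternative chosen after seeing the data, 5 of the 85 were called (0.0887% of all), this site lower and 4 higher, and 0 without cKO replicate 3. The adjacent nucleotide 1153 shares reads with it and had 9.05%, 7.34%, 6.65% and 9.45% in WT and 6.41%, 5.75% and 1.84% in cKO (difference −3.45 points, −2.04 without cKO replicate 3, adjusted p = 0.526).

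The genotypes did not overlap at 6 of the 85 sites. cKO was above WT in every library at 1 of them, nucleotide 16, and below at 5, nucleotides 983, 1152, 1153, 1222 and 1831. Over all tested sites the shares were 5.4% above and 2.06% below. At nucleotide 1222 the difference was −6.39 points, and −2.64 points without cKO replicate 3, and the adjusted p was 0.573. At its neighbour 1221, where the genotypes overlap, the difference was −7.35 points and −3.61 points (adjusted p = 0.526). Nucleotide 16 stood at 4.57% to 5.88% in WT and 6.59% to 7.86% in cKO.

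Among the 85 tested sites, the 2 largest differences between the group means in each direction rested on cKO replicate 3. Nucleotide 223 (39846576) had 564 read starts of 2180 reads, 431 of 1721, 703 of 2540 and 249 of 1233 in WT, which is 20.2% to 27.7%. It had 22.8%, 27.5% and 60.6% in cKO, and its difference of 12.3 points was 0.429 points without this library. Nucleotide 1665 (39848018) was at 20.1%, 28.8%, 20.9% and 30.4% in WT and at 25.3%, 28.1% and 58.7% in cKO, with 12.3 points and 1.64 points. In the other direction, nucleotide 1588 (39847941) was at 30.9%, 26.9%, 25.4% and 30.5% in WT and at 23.3%, 26.9% and 4.43% in cKO, with −10.2 points and −3.30 points. cKO replicates 1 and 2 lie within the WT range at these sites, except replicate 1 at nucleotide 1588, which lies just below it. The difference at nucleotide 245 was likewise −10.6 points with all libraries and −0.622 points without cKO replicate 3.

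Among the sites with the lowest p in the higher direction, nucleotide 1423 (39847776) had 2.68%, 4.13%, 5.47% and 0.809% in WT and 4.52%, 7.72% and 12.5% in cKO. Nucleotide 1666 (39848019) had 41 read starts of 324 reads, 19 of 172, 24 of 177 and 20 of 111 in WT against 36 of 214, 19 of 108 and 487 of 1386 in cKO, the last being 35.1%. At nucleotide 1672 (39848025) the values were 6.90%, 7.41%, 10.6% and 7.42% against 8.03%, 9.76% and 21.7%. The genotypes overlap at all 3, and the differences of 4.96, 9.36 and 5.08 points were 2.85, 3.39 and 0.807 points without cKO replicate 3 (adjusted p = 0.526 at each with all libraries, quasi-binomial test with limma's squeezing).

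**Figure D3:**
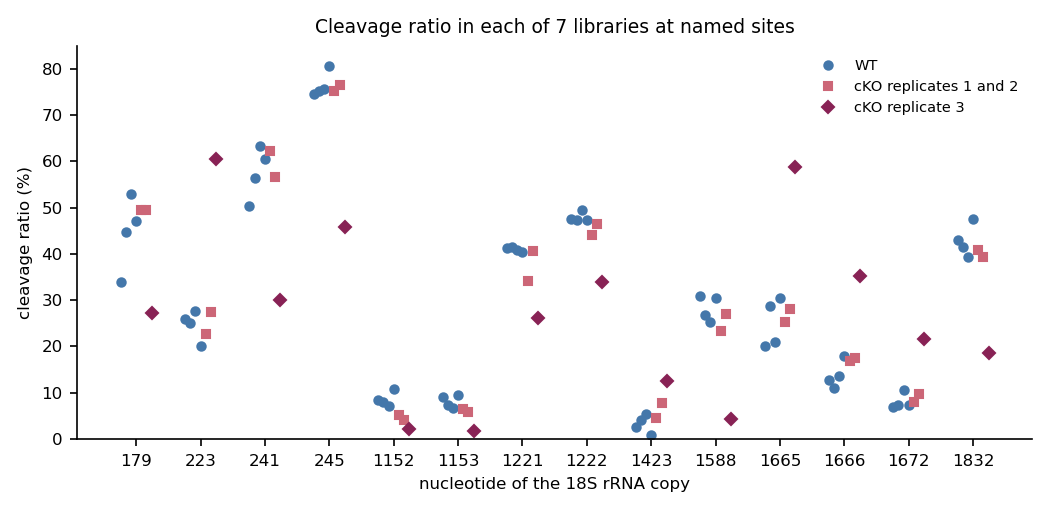
Cleavage ratio in each of the 7 HAC-seq libraries at 14 named nucleotides of the 18S copy, with circles for WT, squares for cKO replicates 1 and 2 and diamonds for cKO replicate 3. The diamond stands off from the other 6 points at most sites, below them at nucleotides 241, 245, 1588 and 1832 and above them at 223 and 1665.

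cKO replicate 3 held far more 18S reads than the other libraries. Coverage was scaled between libraries by the median ratio over all sites. Median scaled coverage over 341 18S sites was then 997, 1084, 1070 and 889 reads in WT and 1892, 1004 and 15072 reads in cKO. The ratio of cKO replicate 3 to the mean of the other 6 libraries had a median of 10.7 (quartiles 5.40 and 16.5, range 0.976 to 67.6) and was above 5 at 262 of the 341 sites. The 5 thinly covered 5S sites had a median of 10.7 as well. Over other classes of RNA this quotient had a median of 2.57 at the 4 sites of 5.8S rRNA, 2.02 at mitochondrial rRNA, 1.15 at small nuclear RNA and 0.972 at protein-coding genes. 18S sites held 1.12% to 2.42% of the summed coverage in WT, 2.74% and 1.82% in cKO replicates 1 and 2, and 4.84% in cKO replicate 3.

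The profile of this library also differed in shape. Across the 341 sites, Pearson's r of the cleavage ratios was 0.953 to 0.981 between pairs of the other 6 libraries and 0.700 to 0.733 in pairs with cKO replicate 3 (Spearman's rho 0.886 to 0.943 and 0.778 to 0.832). These are correlations across sites that share reads, given as a description. It had the highest ratio of the 7 libraries at 114 sites and the lowest at 115, where each of the others had 24 to 61 and 23 to 51. Of the 15 sites at or above 20% in the other 6 libraries, 13 were lower in cKO replicate 3. Among the 65 sites between 5% and 20%, 26 were lower and 39 higher, and among the 261 below 5%, 136 were lower and 125 higher. The groups were formed on the ratios of those same 6 libraries, which by itself favours lower values of cKO replicate 3 at the highest sites. Whether the excess of 18S reads and the changed ratios of this library have a common source was not tested.

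Coverage itself was concentrated in short stretches. Scaled coverage, averaged over the 6 libraries other than cKO replicate 3, exceeded 10000 reads at 34 sites in 5 stretches. The highest, from nucleotide 241 to 278, reached 160146 reads. It began at nucleotides 241 and 245, which had the highest ratios of the copy. Coverage was 8625 reads at nucleotide 240 and 3242 at nucleotide 282. A stretch from 882 to 911 reached 68117 reads, one from 1832 to 1844 reached 28680, one from 173 to 187 reached 23637, and one from 313 to 317 reached 10162. The stretches at 173, 241 and 1832 each hold a site with a mean ratio among the 5 highest. From the stretch of highest to that of lowest coverage, cKO replicate 3 had a median of 1.48, 3.79, 1.31, 5.01 and 7.97 times the mean of the other libraries in these stretches. The stretches were chosen by the coverage of those same 6 libraries, which by itself lowers the quotient there, so it is not compared with the rest of the copy.

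**Figure D4:**
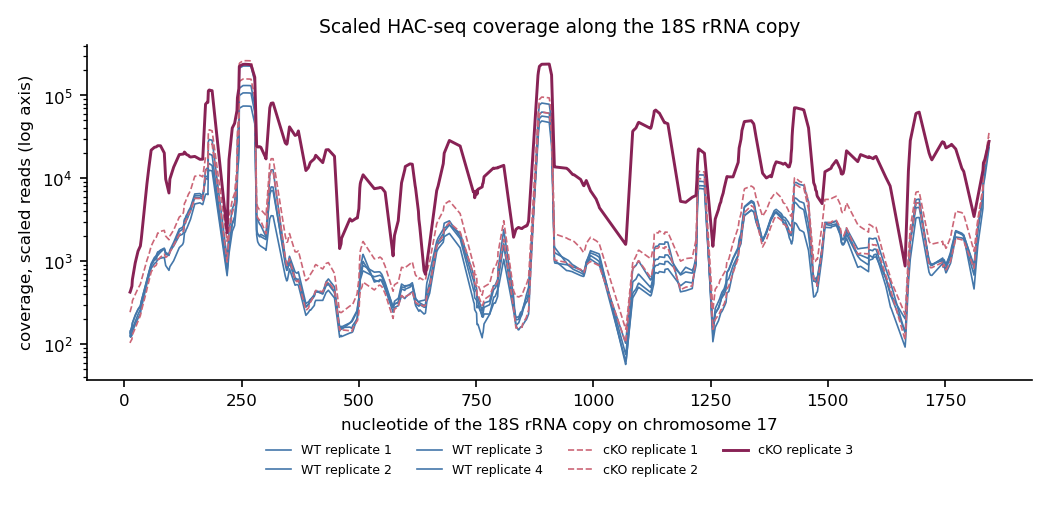
Scaled coverage (reads, log axis) against the nucleotide of the 18S copy in each of the 7 HAC-seq libraries, with WT as solid thin lines, cKO replicates 1 and 2 dashed and cKO replicate 3 as a thick line. The thick line runs above the others along most of the copy and comes near them at the stretches from 241 to 278 and from 1832 to 1844.

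No nuclear rRNA site passed the test of coverage, cKO against WT. Limma on log2(scaled coverage + 1) called 0 of 346 sites, against 0.00365% of all 82143 sites called higher. At an unadjusted p under 0.05, 185 of the 346 sites were higher in cKO and 0 lower, against 5.43% and 6.84% of all sites. The median log2 difference of the 346 sites was 1.49 with all libraries and 0.45 without cKO replicate 3, and then 122 were higher and 0 lower (4.13% and 8.59% of all sites). The count depended on single libraries, with 37 sites higher without WT replicate 4 (2.68% of all sites) and 345 without cKO replicate 2 (7.92% of all sites). Sites of 1 gene share reads, so these counts rise and fall together. In such bulk RNA, a change in the cells present and a change in RNA per cell cannot be told apart.

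5.8S rRNA was measured at 4 sites of n-R5-8s1, named here by their distance from the most 5′ of them. The site 50 nucleotides downstream had the highest ratio, 37.1%, 38.0%, 34.0% and 40.5% in WT and 36.6%, 39.6% and 33.8% in cKO. Its WT and cKO libraries overlapped throughout (difference −0.746 points, 0.680 without cKO replicate 3, adjusted p = 0.778). The site 35 nucleotides downstream was at 23.7%, 32.1%, 34.8% and 38.2% in WT and at 25.2%, 23.1% and 26.7% in cKO, where WT varied widely and cKO replicate 2 lies just below the lowest WT library (difference −7.22 points, −8.08 without cKO replicate 3, adjusted p = 0.720). At 53 nucleotides the ratio was 4.44%, 6.42%, 7.54% and 5.83% in WT and 10.1%, 7.37% and 7.97% in cKO (difference 2.42 points, 2.67 without cKO replicate 3, adjusted p = 0.573). cKO replicate 3 lay within or next to the range of the other 6 libraries at these 3 sites.

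The most 5′ of the 5.8S sites was below the ratio limit and was not tested in the main model. It was tested in the fits with a mean ratio of at least 0.01 and with no ratio limit. Both called 0 nuclear rRNA sites (lowest adjusted p among them 0.0940 and 0.180, quasi-binomial test). It was at 5.32%, 4.48%, 4.76% and 7.08% in WT and at 3.64%, 3.49% and 3.10% in cKO, on 86 to 807 reads. All cKO values lie below all WT values, with an exact permutation p of 0.0571. The authors' deposited table gives it a p of 0.0367. The WT mean was 5.41% ± 1.16 (SD, n = 4), the cKO mean was 3.41% ± 0.281 (SD, n = 3), and without cKO replicate 3 the difference was −1.85 points.

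Sites in 5S genes were too thinly covered for the test, since all 5 had under 50 reads in at least 1 library. n-R5s93 (chromosome 8, minus strand, 5069274) and n-R5s2 (chromosome X, plus strand, 6106994) are listed at the same place, nucleotide 104 of 119 in their RefSeq models. RefSeq classes n-R5s93 as a pseudogene and n-R5s2 as an rRNA gene. In n-R5s93, 9 of 17, 10 of 16, 22 of 26 and 9 of 18 reads started at the site in WT and 7 of 10, 12 of 17 and 51 of 82 in cKO. The first of these shares, 52.9%, has an exact 95% interval of 27.8% to 77.0%, and the genotypes overlap. In n-R5s2, 10 of 34, 9 of 26, 21 of 33 and 8 of 25 reads started there in WT and 7 of 29, 13 of 31 and 53 of 639 in cKO. Read starts of the 2 genes differed by at most 2 in each library, while coverage differed, most in cKO replicate 3. Whether the 2 genes hold the same reads was not tested.

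The other 5S entries were thinly covered as well. In n-R5s56 (chromosome 13, plus strand, 103396201), all of 4 to 12 reads started at the site in 6 libraries and 298 of 299 in cKO replicate 3. n-R5s182 (chromosome 4, plus strand, 12812797) had 3 to 7 starts of 25 to 34 reads in WT, and 6 of 18, 2 of 9 and 10 of 196 in cKO. n-R5s64 (chromosome 12, minus strand, 85718492) had 2 to 6 reads in WT. The reads of cKO replicate 3 outnumber those of each other library at all 5 of these sites. Gm24601 (chromosome 6, minus strand) was tested at position 94826881, where 16 of 181, 14 of 140, 20 of 109 and 24 of 149 reads started in WT and 20 of 130, 5 of 58 and 23 of 343 in cKO, ratios of 8.84% to 18.3% and 6.71% to 15.4% that overlap (difference −3.09 points, −1.32 without cKO replicate 3, adjusted p = 0.745). Its other site, 94826888, had 45 reads in cKO replicate 2 and was not tested.

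The RNA-seq libraries give a second view of rRNA and of the genes that make it. As a check on the labels, Mettl8 was at 35.9 to 58.6 CPM in WT (median 46.9) and at 59.3 to 80.9 CPM (median 74.9) in the libraries labelled cKO. Its log2 fold change was 0.67 (SE 0.119, edgeR unadjusted p = 2.02e-05, adjusted p = 0.265). Every library labelled cKO is above every WT library, which goes against a loss of transcript. A count over the whole gene does not show which exons are present, so the labels are taken as given here. edgeR called 0 of 13105 genes (0.0%), with 430 lower (3.28%) and 375 higher (2.86%) at an unadjusted p under 0.05. The libraries came in 2 named sets with both genotypes in each, and the set was a term of the model. Within sets the log2 fold change of Mettl8 was 0.56 (set 1) and 0.75 (set 2).

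Both rRNA genes in the count table were at similar levels in WT libraries and libraries labelled cKO. Rn45s, the rRNA precursor gene, was at 1894, 2093 and 3460 CPM in WT libraries of set 1 and 2487 and 2199 CPM in those labelled cKO. In set 2 it was at 3816, 3572 and 2919 CPM in WT and 2442, 3648, 3404 and 3966 CPM in cKO. The genotypes overlap within each set. The means were 2959 ± 806 CPM (SD, n = 6) and 3024 ± 739 CPM (SD, n = 6), with a log2 fold change of −0.05 (SE 0.126, edgeR adjusted p = 0.967), −0.08 in set 1 and −0.03 in set 2. Exact permutation within sets gave p = 0.86 over 350 splits.

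Rn18s, an 18S rRNA gene, had 171, 193 and 293 CPM in WT and 213 and 204 CPM in cKO in set 1. In set 2 the values were 303, 299 and 217 CPM in WT and 218, 288, 287 and 360 CPM in cKO. Again the genotypes overlap in both sets. Its log2 fold change was 0.02 (SE 0.126, edgeR adjusted p = 0.989), with −0.07 for set 1 and 0.08 for set 2, and the exact permutation p within sets was 0.9. Rn45s and Rn18s may share reads, since the first contains an 18S sequence, and the labels and headers do not state how such reads were counted. The HAC-seq and RNA-seq libraries are separate samples, so no RNA-seq value exists for HAC-seq cKO replicate 3.

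**Figure D5:**
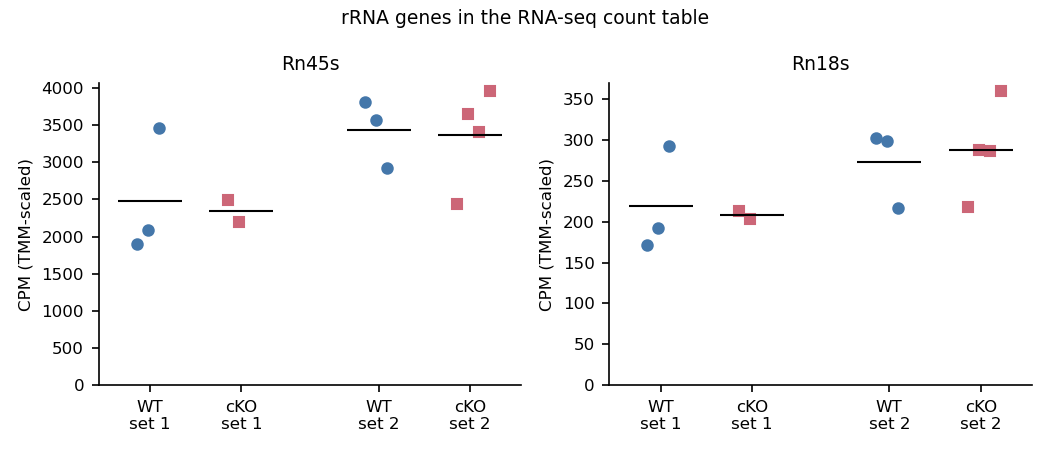
TMM-scaled CPM of Rn45s and Rn18s in the 12 RNA-seq libraries by genotype and library set, each point 1 library and the bar the mean. The points of WT and cKO overlap within each set, and both genes stand higher on average in set 2.

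Genes of rRNA production were not called either. The 4 lists hold 102 genes, of which 101 were tested, and edgeR called 0 of them, with 0 lower and 5 higher at an unadjusted p under 0.05. That is 4.95% higher, beside 2.86% higher and 3.28% lower over all genes tested. DESeq2 also called 0. The median over their log2 fold changes was 0.03 (set 1, −0.03; set 2, 0.08), beside −0.000996 over all genes tested. In the list of polymerase I and III factors 18 of 33 genes had values below 0 and 15 above. Gtf3c2, a subunit of the polymerase III factor TFIIIC, had the lowest p, with 102 to 125 CPM in WT (median 111) and 113 to 138 CPM in cKO (median 128), log2 fold change 0.17 (SE 0.0711, edgeR adjusted p = 0.804). Gtf3c1, another TFIIIC subunit, was at 0.29, and Gtf3a, the factor that binds the 5S gene, at 0.42 with 1.21 to 3.23 CPM over the 12 libraries.

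Among 18 tested genes of rRNA modification, 9 were below and 9 above 0. Zcchc4, which methylates an adenosine of 28S rRNA, stood at 2.51 to 4.51 CPM in WT and 3.16 to 6.49 CPM in cKO, log2 fold change 0.55 (SE 0.202, edgeR adjusted p = 0.803). The groups overlap and the counts are low. Dimt1, the 18S adenosine dimethyltransferase, was at 0.17, and Gar1, a protein of the particles that guide pseudouridylation, at −0.26. The list of processing and assembly factors had 31 of 45 genes above 0, which is 68.9%, beside 49.6% of all genes tested. Its median log2 fold change was 0.048, with −0.020 in set 1 and 0.098 in set 2. Utp15, a subunit of the small-subunit processome, was at 23.4 to 39.6 CPM in WT (median 31.0) and 29.0 to 46.4 CPM in cKO (median 41.9), log2 fold change 0.24 (SE 0.0767, edgeR adjusted p = 0.803).

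Ddx21, a nucleolar RNA helicase, and Bms1, a GTPase of the processome, had log2 fold changes of 0.17 and 0.20, with 0.04 and 0.09 in set 1 and 0.26 and 0.28 in set 2. Neither passed, and the difference between sets was not called for any gene tested. Of the 5 genes of the 5S particle, which carries 5S rRNA into the large subunit, 4 were above 0. The ribosomal protein gene Rpl11 was at 0.18, and the assembly factors Rrs1 and Rpf2 were at 0.15 and −0.05.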

How the data were processed

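The 7 HAC-seq and 12 RNA-seq libraries were grouped by the labels. The submitters' processing notes list STAR 2.5.2a, Trimmomatic 0.32 and bcl2fastq 2.17.1.14, and the builds GRCm38.p6 (HAC-seq) and GRCm38 (RNA-seq). No counting program is named there. The deposited HAC-seq table gives, per the file headers, for each C site and library the read starts (a signal), the count of all reads, their quotient as a fraction, and a p-value whose test is not named. It keeps sites with more than 1 read start in each WT library (lowest WT value 2, lowest cKO value 0), so a site cleaved only in cKO cannot be listed. The deposited RNA-seq table holds raw counts per gene. Of 135582 lines, 16692 repeated a site, which left 118890 sites and 112992 distinct signals; the 353 rRNA sites had distinct signals.

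A quasi-binomial model of read starts against coverage was fitted per site in R 4.3.3, with dispersions squeezed by limma 3.58.1 and not below 1, a two-sided F test, and Benjamini-Hochberg adjustment over all 12402 sites with at least 50 reads in every library and a mean ratio of at least 0.05. Coverage was scaled by median ratios and tested with limma on log2(value + 1) over 82143 sites. RNA-seq counts were tested with edgeR 4.0.16 (quasi-likelihood, filterByExpr, TMM, library set as a term), with DESeq2 1.42.0 as an alternative. Single sites were compared by two-sided exact permutation, and intervals are exact Clopper-Pearson (95%, scipy 1.17.1). Methods were tested on simulated data.

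Named sites were those with the 5 highest ratios and the highest coverage per rRNA class, any call in a fit without 1 library, the 3 lowest p and the 2 largest differences in each direction; from each gene list, the 3 lowest p. The members and lists were chosen with earlier results of these data known. Deviations of same-numbered HAC-seq libraries correlated at −0.0128 to 0.0353, which neither shows nor excludes a pairing. Alternatives covered coverage and ratio minimums, tests, scaling, filters and leaving out each library.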

Additional observations from a re-analysis of the deposited data

Results flagged for a closer look

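Of 50 groups of 4 to 6 libraries examined, 3 held a value set off from the rest by more than Dixon's 95% limit, and chance alone gives about 1 in 20. At 18S nucleotide 1222, WT replicate 3 had a ratio of 49.5%, above 47.3% to 47.5% in the other WT libraries. At 18S nucleotide 1672, WT replicate 3 had 10.6%, above 6.90% to 7.42%. Rpl11 was at 6.63 CPM in RNA-seq cKO replicate 4, above 3.27 to 3.85 CPM in the other 5 libraries labelled cKO. HAC-seq groups of 3 were not examined in this way, so cKO replicate 3 could not be listed here.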

How the results depend on the processing

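The main limits are 3 cKO libraries against 4 WT, a cKO library that differs from the others on 18S rRNA, a single 18S gene model, and a site list filtered on WT reads. Sites under 50 reads, all 5S sites among them, were not tested in the model. The count of called nuclear rRNA sites was 0 under the coverage minimums of 20 and 100, both other ratio limits, limma on arcsine ratios, counting of all lines, and the replicate block (7 lower and 14 higher at an unadjusted p under 0.05, against 0.685% and 4.36% of all tested sites). It was 0 to 1 when 1 library was left out, nucleotide 1152 being called without cKO replicate 1 (−5.41 points), and 5 with dispersions squeezed to a trend on coverage (nucleotides 1152, 1422, 1423, 1666 and 1672), an alternative chosen after seeing the data that gave 0 without cKO replicate 3. Over all sites the count of 1 became 2 with a ratio of at least 0.01 and 2 with no ratio limit, 11 with the trend, and 1 to 21 when 1 library was left out (21 without cKO replicate 2, 2 without cKO replicate 1). The mean cleavage difference of 0.000548 points was −7.41 points as summed starts over summed coverage, where cKO replicate 3 stood at 15.3% and the other libraries at 33.5% to 45.7%, and 0.122 points under the replicate block. Differences changed sign at nucleotide 179 (4.73 points without cKO replicate 3, −6.37 to 4.73 when 1 library was left out, 0.0753 without WT replicate 3), nucleotide 241 (1.78 without cKO replicate 3, −14.3 to 1.78) and the 5.8S site at 50 nucleotides (0.680 without cKO replicate 3, 0.279 without WT replicate 4 and under the replicate block, −2.22 to 0.680). The other 153 of 160 single-site alternatives kept direction and call, with nucleotide 1152 as the case named above. No coverage call at a nuclear rRNA site and no call among rRNA production genes was made under any alternative run. RNA-seq genes called were 2 with DESeq2, 65 with no filter on low counts, and 0 to 1 when 1 library was left out (1 without WT replicate 3 and 1 without WT replicate 6). The log2 fold change of Rn45s was 0.0316 with no library set term, 0.0453 under the replicate block and −0.111 to 0.0670 when 1 library was left out, and that of Rn18s −0.0659 to 0.122. Deviations of same-numbered HAC-seq libraries correlated at −0.0128 to 0.0353 and of RNA-seq libraries at −0.0847 to 0.225, and the block called 0 RNA-seq genes. These correlations neither show nor exclude a pairing of the libraries. RNA-seq WT replicate 3 was in library set 1 and cKO replicate 3 in set 2, so the RNA-seq replicate block does not keep replicate apart from set. Scaling coverage by its sum shifted the log2 median of all sites to −0.21 and that of rRNA sites to 1.29. The causes of these changes were not tested.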
